A study of Homo sapiens with 6 samples.

Results

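*XAF1* and the inhibitor of apoptosis (IAP) family were followed in SW480 cells that overexpressed *MDM4*. The set comprised 9 genes of the 19225 in the expression table, taken by symbol, with earlier results of these data known: *XAF1*, the IAP genes *XIAP*, *BIRC2*, *BIRC3*, *BIRC5*, *BIRC6* and *BIRC7*, and the mitochondrial IAP antagonists *DIABLO* and *HTRA2*. SW480 is an established human colon cancer cell line, and all 6 libraries came from these cells, which carry mutant p53. The control group had 3 libraries and the MDM4 group had 3, numbered 1 to 3 in each. As the study describes it, the MDM4 group was transfected transiently with a plasmid encoding MDM4. The labels name plasmid transfection for all samples but not the plasmid of the controls, and they call the second group exercised, which was read here as the MDM4 group. Nothing states that same-group libraries came from separate cultures, so the p-values below measure the spread between these libraries, which may be technical. Expression was given as FPKM, fragments per kilobase of transcript, scaled to the depth of the library, and whole reads recovered from the steps between FPKM values gave library totals of 32921065 to 44561386 reads.

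IAP proteins share the BIR domain, a zinc-binding fold that can dock onto caspases, the proteases that carry out apoptosis. XIAP blocks initiator and executioner caspases directly, while the products of *BIRC2* and *BIRC3* (cIAP1 and cIAP2) are ubiquitin ligases that act mainly in tumour necrosis factor receptor complexes. DIABLO (SMAC) and HTRA2 (Omi) leave the mitochondria of dying cells and displace caspases from IAPs. XAF1 binds XIAP and counteracts it, and *XAF1* is also known as a gene induced by interferon and often silenced in gastrointestinal cancers.

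*XAF1* was lower with *MDM4* overexpression in all 3 same-numbered pairs, with a large difference in replicates 1 and 2 and a small one in replicate 3, whose libraries stood apart from the rest and whose control was already low in *XAF1*. Across the 6 libraries no member passed the test on FPKM, with or without a block on the replicate number, and none passed with voom on recovered reads without the block. Voom with the block called *XAF1* (adjusted p = 0.0324). The other 8 members differed by 0.40 or less on the log2 scale. The 10 genes whose profile over the libraries lay nearest to that of *XAF1* were all interferon-stimulated genes, and none was a member of the family.

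The sequences around the start of *XAF1* are shown because its level over the libraries resembled that of interferon-stimulated genes. They are RefSeq promoters of GRCh38.p14, each of 250 bases before the transcription start and 50 from it on, and the build used for the deposited values is not given in the sources used here. *XAF1* lies on the plus strand of chromosome 17 (chr17:6755447-6775647 in GENCODE 29) and has 2 promoter entries, of which the first is printed (chr17:6755796-6756095). Capitals mark matches on either strand to AANNGAAA, the core that interferon-regulatory factors recognise.

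*XAF1* promoter: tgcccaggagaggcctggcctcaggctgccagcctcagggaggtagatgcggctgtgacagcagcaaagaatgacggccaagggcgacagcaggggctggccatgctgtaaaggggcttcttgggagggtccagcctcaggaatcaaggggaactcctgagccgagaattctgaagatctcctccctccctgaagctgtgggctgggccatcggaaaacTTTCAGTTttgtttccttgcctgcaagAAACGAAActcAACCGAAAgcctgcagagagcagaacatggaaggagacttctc

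The 3 matches in this entry fell close to the start: 1 on the opposite strand ended 24 bases before it, and the other 2 lay across it or just inside the transcript. The core was found in 22.8% of all 35116 promoters of the table, so a match alone is common, and each match is a description of letters and not a mapped site. The second *XAF1* entry held 1 match, on the opposite strand from 93 to 86 bases before its start. The printed *XAF1* promoter also held 1 match to the NF-κB site, a motif present in 11.3% of all promoters.

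*BIRC3* is shown beside it because it was the other member whose control libraries were far apart. It lies on the plus strand of chromosome 11, with the end of *BIRC3* 7807 bases before the start of *BIRC2*, and capitals in its promoter (chr11:102317234-102317533) mark the 2 matches to the NF-κB site.

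*BIRC3* promoter: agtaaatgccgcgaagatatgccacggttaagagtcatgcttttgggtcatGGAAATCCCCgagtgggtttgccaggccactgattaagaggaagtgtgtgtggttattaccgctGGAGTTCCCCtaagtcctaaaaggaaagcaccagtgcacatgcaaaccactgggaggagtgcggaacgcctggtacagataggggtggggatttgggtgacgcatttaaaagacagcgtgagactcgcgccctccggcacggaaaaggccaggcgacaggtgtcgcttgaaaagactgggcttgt

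The *BIRC3* promoter had 1 match to AANNGAAA as well. Neither motif was found in the 3 promoters of *XIAP* or the 2 each of *BIRC2* and *HTRA2*. One of the 4 *DIABLO* promoters held AANNGAAA, and the NF-κB site occurred in 1 of 2 promoters of *BIRC6* and in that of *BIRC7*. *BIRC5* had no entry.

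The level of *MDM4* checked the labels first. *MDM4* stood at 6.35, 7.09 and 5.13 FPKM in control replicates 1, 2 and 3 and at 188, 185 and 56.3 FPKM in the MDM4 replicates. Every MDM4 library was above every control, and the third carried the least of the transcript. The log2 difference of *MDM4*, on log2(FPKM + 0.1) as for all differences here, was 4.33 ± 0.43 (SE, n = 3 per group), with an adjusted p of 0.161 from limma with Benjamini-Hochberg adjustment over 12884 genes. With the libraries blocked by number it was called (adjusted p = 4.8e-05 on FPKM by limma), as it was with voom on recovered reads and the same block (adjusted p = 1.3e-08), with replicates 1 and 2 alone (adjusted p = 3.7e-11), without MDM4 replicate 3 (adjusted p = 1.7e-06) and without control replicate 3 (adjusted p = 0.0172). The difference was smaller in replicate 3 than in replicates 1 and 2, a difference of -1.35 ± 0.15 that passed the test (limma interaction term, adjusted p = 0.00166), though 1 library per group carries that term.

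Of 10 colon epithelial markers 7 were expressed and tested. *KRT8*, the most abundant, ranged from 1550 to 1876 FPKM, *EPCAM* from 156 to 167 FPKM and *CDX2*, an intestinal transcription factor, from 9.99 to 14.2 FPKM, while *KRT20*, *CDH17* and *CDX1* averaged below 0.5 FPKM. *VIL1* (villin), with the largest difference among the 7 epithelial markers tested, was at 2.96, 3.30 and 4.08 FPKM in the controls and at 2.12, 1.88 and 3.14 FPKM with MDM4 (log2 difference -0.54 ± 0.23, unadjusted p = 0.0465, adjusted p = 0.9999 by limma). The 5 leukocyte markers summed to 1.86, 1.36 and 2.19 FPKM in the controls and 1.29, 0.905 and 2.20 FPKM with MDM4, and the defining marker *PTPRC* reached 0.0142 FPKM at most. Among them *LYZ* (lysozyme), the most abundant, was at 0.959, 0.759 and 0.869 FPKM in the controls and at 0.380, 0.380 and 0.938 FPKM with MDM4, so that it was lower with MDM4 in replicates 1 and 2 and not in replicate 3 (log2 differences -1.14, -0.84 and 0.10, unadjusted p = 0.113 over all libraries by limma). Of the 3 endothelial markers *VWF* was the most abundant, at 0.316 to 0.633 FPKM, and of the 5 fibroblast markers *COL1A1*, at 1.60 to 3.80 FPKM. The endothelial markers summed to 0.458, 0.378 and 0.616 FPKM in the controls and 0.410, 0.316 and 0.648 FPKM with MDM4, and the fibroblast markers to 2.36, 1.61 and 3.77 FPKM and to 1.99, 1.88 and 3.83 FPKM. All 3 sums were highest in replicate 3 of both groups, and their part in the results below was not tested. In bulk RNA, fewer cells that express a gene and less RNA per cell cannot be told apart.

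Among the members, levels per transcript length in the control libraries set *BIRC5* first, at 76.7 ± 3.9 FPKM (SD, n = 3). *BIRC2* followed at 28.6 ± 2.2 FPKM and *BIRC3* at 22.3 ± 7.1 FPKM, and these neighbours overlapped between libraries. A cluster of 4 genes came next, with *HTRA2* at 11.7 ± 1.7, *BIRC6* at 11.2 ± 1.5, *DIABLO* at 10.1 ± 1.4 and *XIAP* at 9.28 ± 1.2 FPKM. Each of them overlapped its neighbour in that order. *XAF1*, at 1.10 ± 0.75 FPKM, and *BIRC7*, at 0.584 ± 0.055 FPKM, were lowest and overlapped as well. *XAF1* had by far the widest relative spread within a group, with a coefficient of variation of 68.3% in the controls against 32.1% for *BIRC3* and 14.1% or less for the remaining members.

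**Figure D1:**
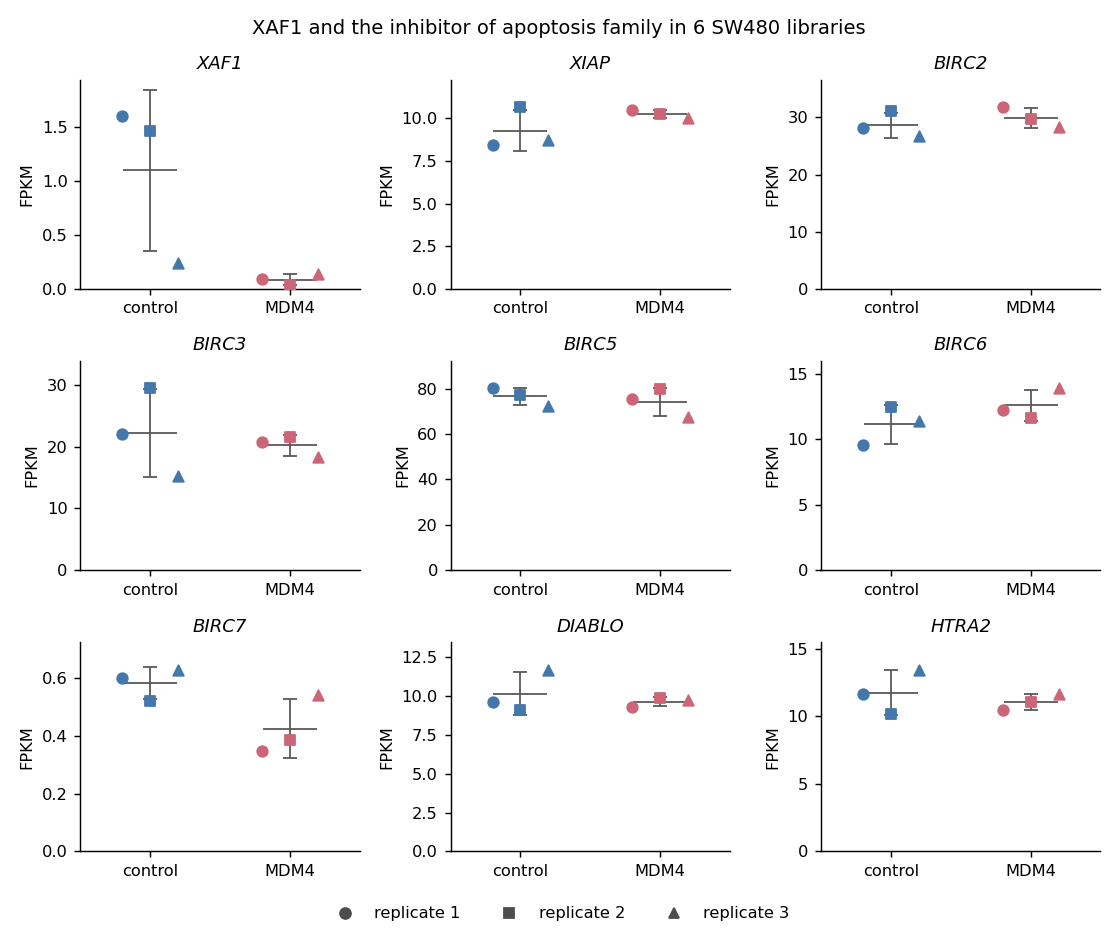
FPKM of each member (vertical axes, each starting at 0) in the control and MDM4 libraries of SW480 cells, with one symbol per replicate number and lines for the mean and SD of 3 libraries. *XAF1* stands at 1.60 and 1.46 FPKM in control replicates 1 and 2, at 0.235 FPKM in control replicate 3 and at 0.135 FPKM or less with MDM4, while the groups of the other members overlap.

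*XAF1* was at 1.60, 1.46 and 0.235 FPKM in control replicates 1, 2 and 3, and at 0.0916, 0.0320 and 0.135 FPKM in the MDM4 replicates. These values rest on 257, 187 and 34 recovered reads in the controls and on 12, 4 and 16 reads with MDM4. The groups did not overlap, but control replicate 3 stood nearer to the MDM4 libraries than to the other controls. Its 95% exact Poisson interval, 0.163 to 0.328 FPKM, overlapped that of MDM4 replicate 3, 0.0769 to 0.219 FPKM, and these intervals cover counting error only. The lowest control value was 1.75 times the highest MDM4 value, and the ratio of the means was 12.7.

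The log2 difference of *XAF1*, MDM4 minus control, was -2.41 ± 0.64 (SE, n = 3 per group) with the pseudocount of 0.1, and it was -1.31 with a pseudocount of 0.5 and -0.87 with 1. The unadjusted p was 0.00598, and with limma and Benjamini-Hochberg adjustment over all genes the adjusted p was 0.9999. An exact two-sided permutation test of 3 against 3 libraries gave p = 0.1, the smallest that this design allows. The test across all 6 libraries called 0 of the 9 members at an adjusted p below 0.05, beside 0.0% of all 12884 genes, and 1 member, *XAF1*, had an unadjusted p below 0.05, beside 1.72% of all genes. *XAF1* was also the only member whose MDM4 values all lay below the controls, as held for 3.76% of genes, and no member had all MDM4 values above the controls, as held for 3.1%. *XAF1* passed the filter on low values (a mean of 0.5 FPKM) only through control replicates 1 and 2. The study chose *XAF1* for qPCR from these libraries, so its difference is not independent evidence. By qPCR the study reports *XAF1* as downregulated with *MDM4* overexpression in SW480 and in HT29, another colon cancer line. It also reports differentially expressed genes in both directions from this sequencing, and its text names no test for them.

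Taken by replicate number, *XAF1* was 17.4-fold lower with MDM4 in replicate 1 and 45.5-fold lower in replicate 2, the latter resting on 4 reads, but 1.75-fold lower in replicate 3. The log2 differences were -3.15, -3.56 and -0.51. Control replicate 3 minus the mean of the other controls was -2.28 on the log2 scale. MDM4 replicate 3 minus the mean of the other MDM4 libraries was 0.56, but the counting intervals of all 3 MDM4 libraries overlapped. Over all tested genes the medians of the same differences were 0.09 and 0.10. The term for a different effect in replicate 3 was 2.84 ± 0.62 for *XAF1*, with an unadjusted p of 0.000737 and an adjusted p of 0.226 (limma), and it passed the test for 0 of 9 members, beside 0.194% of all genes. *MDM4* itself was lowest among the MDM4 libraries in replicate 3, and its part in the *XAF1* result was not tested.

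**Figure D2:**
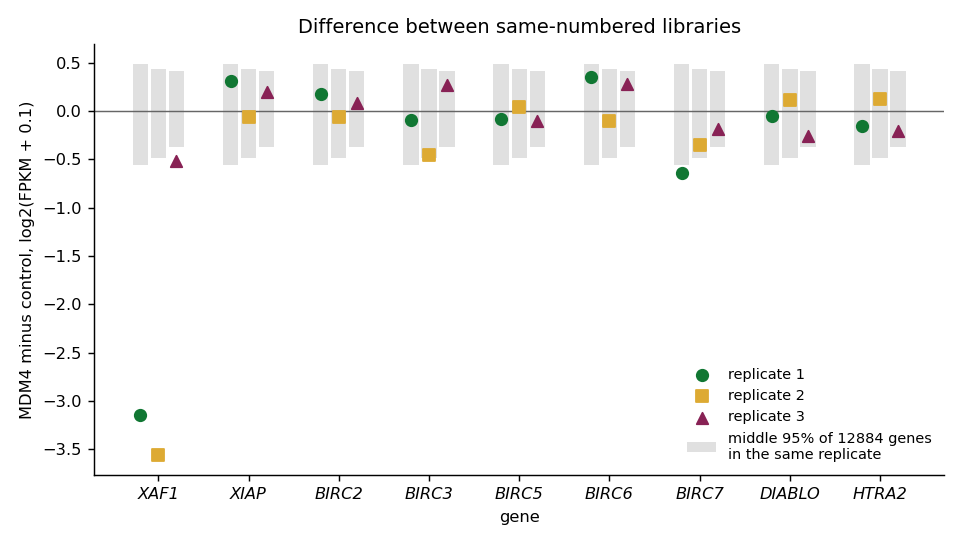
Difference between the MDM4 and the control library of the same number, on the log2(FPKM + 0.1) scale (vertical axis), for each member and replicate, with grey bars for the middle 95% of the 12884 genes tested in the same replicate (-0.56 to 0.49, -0.49 to 0.43 and -0.38 to 0.41 in replicates 1 to 3). *XAF1* lies at -3.15, -3.56 and -0.51, each below its bar, and of the other members only *BIRC7* in replicate 1, at -0.64, leaves its bar.

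With replicates 1 and 2 alone, a choice made with the position of replicate 3 already known, *XAF1* was called. Its log2 difference was then -3.35 ± 0.31 (SE, n = 2 per group), with an adjusted p of 0.00018 (limma). It was the 1 member of 9 called, all others being above the threshold, beside 0.536% of all genes (0.512% lower and 0.0233% higher). Leaving out control replicate 3 alone also brought *XAF1* past the threshold, at -3.17 and an adjusted p of 0.0305 (limma, 0.163% of all genes called), whereas leaving out MDM4 replicate 3 alone did not (adjusted p = 0.81, 0.00776% called). When libraries were blocked by number, *XAF1* had an adjusted p of 0.219 on FPKM (limma, 0.0155% of all genes called) and of 0.0324 on the recovered reads (voom and limma, 0.225% called). Without the block, voom gave -3.40 ± 1.09 and did not call it (adjusted p = 0.999995).

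The primers the study used for *XAF1* by qPCR show which transcripts such an assay can see. Both are 23 bases long and are printed 5′ to 3′.

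*XAF1* forward primer: gggtaaatgttgtccagactcag

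*XAF1* reverse primer: gcttcttggtgctttctttgatg

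They matched 7 of the 19 *XAF1* transcripts of GENCODE 29 and enclosed 196 bases in each. In the protein-coding transcript whose length of 3623 bases is nearest to the 3598 bases implied by the deposited values, the product joined exons 5 and 6. The locus of PRAL overlaps the end of *XAF1* on the opposite strand over 2817 bases, and since no source states that strand was used in counting, reads of the pair cannot be told apart there.

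*XIAP*, the protein that XAF1 binds, did not follow it. Its levels were 8.45, 10.7 and 8.73 FPKM in the control replicates and 10.5, 10.2 and 10.002 FPKM in the MDM4 replicates. The groups overlapped, since control replicate 2 was above all MDM4 libraries. The log2 difference was 0.15 ± 0.12 (SE, n = 3 per group; limma, unadjusted p = 0.251, adjusted p = 0.9999). The level of *XIAP* exceeded that of *XAF1* by a factor of 5.29, 7.32 and 37.2 in the control replicates and of 114, 320 and 74.3 in the MDM4 replicates. With *XIAP* varying little, this ratio restates the values of *XAF1* and rests on its 4 to 16 reads in the MDM4 libraries.

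The pair of ubiquitin ligases had their highest control value in replicate 2 and their lowest in replicate 3. *BIRC2* stood at 28.1, 31.0 and 26.7 FPKM in the controls and 31.8, 29.6 and 28.3 FPKM with MDM4. Its groups overlapped and its log2 difference was 0.07 ± 0.09, and replicate 3 minus the mean of replicates 1 and 2 was -0.15 in the controls and -0.12 with MDM4. *BIRC3*, whose transcription is induced by NF-κB, stood at 22.1, 29.5 and 15.2 FPKM in the controls and 20.8, 21.5 and 18.3 FPKM with MDM4. The MDM4 values lay inside the range of the controls, which spanned 1.94-fold. The log2 difference of *BIRC3* was -0.09 ± 0.22 over all libraries, and by replicate number it was -0.09, -0.45 and 0.27. It was lower in replicate 3 than in replicates 1 and 2 in both groups, by differences of -0.74 and -0.21. With replicates 1 and 2 alone its log2 difference was -0.27 ± 0.12, with an unadjusted p of 0.0463 and an adjusted p of 0.596 (limma). *BIRC2* exceeded *BIRC3* per length in all 6 libraries, by a factor of 1.05 to 1.76.

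*BIRC5* (survivin), which guides chromosome segregation as a part of the chromosomal passenger complex, was the most abundant member in each library. It was at 80.2, 77.3 and 72.5 FPKM in the controls and at 75.6, 79.7 and 67.6 FPKM with MDM4. The third replicate was the lowest of its group on both sides. Its log2 difference was -0.05 ± 0.08. *BIRC6*, a very large ubiquitin-conjugating enzyme with a BIR domain, was at 9.56, 12.5 and 11.4 FPKM in the controls and at 12.3, 11.6 and 13.9 FPKM with MDM4. Control replicates 1 and 3 lay below every MDM4 library but control replicate 2 did not, and the log2 difference was 0.18 ± 0.13.

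*BIRC7* (livin), an IAP known from melanoma, was expressed weakly. It stood at 0.600, 0.523 and 0.630 FPKM in the controls (36, 25 and 34 reads) and at 0.348, 0.387 and 0.542 FPKM with MDM4 (17, 18 and 24 reads). Only MDM4 replicate 3 reached into the range of the controls. The log2 difference was -0.40 ± 0.27 (limma, unadjusted p = 0.177), with -0.64, -0.36 and -0.19 by replicate number. *XAF1* and *BIRC7* were the 2 members lower in each same-numbered pair, a pattern shown by 18.6% of all tested genes, and no member was higher in each pair, beside 16.6%. The mean of *BIRC7*, 0.505 FPKM, was just above the filter, and the counting intervals of all its libraries overlapped.

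Neither mitochondrial antagonist was called. *DIABLO* was at 9.63, 9.09 and 11.7 FPKM in the controls and 9.31, 9.86 and 9.77 FPKM with MDM4, a log2 difference of -0.06 ± 0.12. *HTRA2* was at 11.6, 10.2 and 13.5 FPKM in the controls and 10.5, 11.1 and 11.6 FPKM with MDM4, a log2 difference of -0.08 ± 0.12. In both genes control replicate 3 was the highest of all 6 libraries and the other 5 spanned a narrow range. *DIABLO* shares most of its span with AC048338.1 on the same strand, and *HTRA2* overlaps *AUP1* and *LOXL3* on the opposite strand, so the counts of both are uncertain to the extent that such reads were assigned to either gene. The median log2 difference over the 9 members was -0.06, and that over all tested genes was -0.01. A lower mean with MDM4 was seen in 6 of the 9, beside 52.8% of all genes.

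The 10 genes nearest to *XAF1* were found by the root mean square distance between profiles of log2(FPKM + 0.1) over the 6 libraries, each centred on its own mean. In order of distance they were *MX1* (0.252), *IFI27*, *IFI6*, *MX2*, *IFIT2*, *OAS1*, *IFIT1*, *IFITM1*, *IRF9* and *IFIT3* (0.679), against a median distance of 1.46 over all 12883 other genes. A gene flat over the libraries would lie at 1.44, the root mean square of the *XAF1* profile, so that median is about that of a flat gene. The distance is not scaled and favours genes with a drop of like size. With MDM4, *XAF1* lay near the pseudocount of 0.1, at 0.0320 to 0.135 FPKM. All 10 belonged to a list of 44 interferon-stimulated genes that did not contain *XAF1*. The likeness covers 6 libraries only, in which these genes were high in control replicates 1 and 2 and lower in the other 4. *MX1*, an antiviral GTPase, was at 30.6, 30.4 and 5.65 FPKM in the controls and at 3.86, 3.75 and 5.26 FPKM with MDM4. *IFI6*, an interferon-induced membrane protein, was at 162, 170 and 21.3 FPKM in the controls and at 15.2, 16.7 and 19.6 FPKM with MDM4. In both, as in *XAF1*, the third control was the lowest control and the third MDM4 library the highest of its group. Being more abundant, they rest on far more reads than *XAF1*: *MX1* had 365 to 3828 reads per library.

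**Figure D3:**
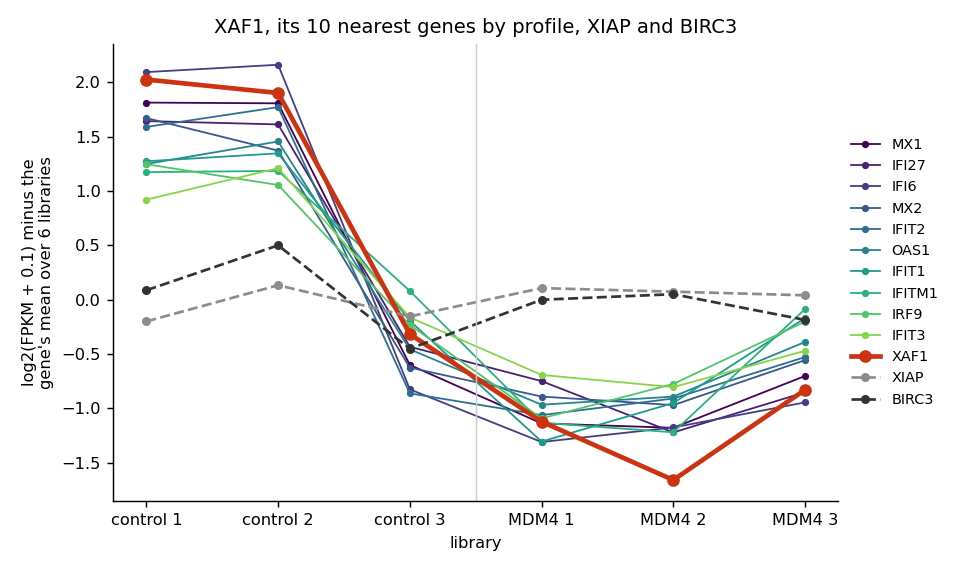
Level of *XAF1* (thick line), of its 10 nearest genes (thin lines) and of *XIAP* and *BIRC3* (dashed) in the 6 libraries, as log2(FPKM + 0.1) minus each gene's mean. *XAF1* and the 10 genes are highest in control replicates 1 and 2 and lower in the other 4 libraries, with *IFITM1* in control replicate 3 (43.1 FPKM) still near its mean, and the line of *XIAP* is nearly flat.

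Promoters of these neighbours are shown for comparison with that of *XAF1*. Of the 10, 8 had a promoter in the RefSeq table, all 8 held AANNGAAA and 6 held the longer GAAANNGAAA, of which every match also contains AANNGAAA. Over the 27305 genes of the table the shares were 26.7% and 4.38%. For each of the 6, the match nearest the start in its first promoter is given on the strand of the motif, in capitals, with 8 bases on each side.

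*MX1*, chr21:41420561-41420586: gcagaaatGAAACCGAAActgaattg

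*IFI27*, chr14:94110633-94110658: gtttcctgGAAAATGAAAcctatctc

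*IFI6*, chr1:27672268-27672293: agagtgcaGAAATAGAAActccgaca

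*IFIT1*, chr10:89392512-89392537: aacctaggGAAACCGAAAggggaaag

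*IFITM1*, chr11:314026-314051: acttctgaGAAACTGAAAcgacaggg

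*IFIT3*, chr10:89327867-89327892: ggaaactgGAAAGTGAAActaattta

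No member with a promoter entry had GAAANNGAAA there, *XAF1* included, and this says only that these letters are not in those windows. *BIRC5* had no entry and was not searched. Of the 32 interferon-stimulated genes with a promoter, 30 (93.8%) held AANNGAAA and 24 (75.0%) the longer form. Of 14 G2/M genes with a promoter, the counts were 4 and 0. The NF-κB site was found in 8 of 13 NF-κB target genes (61.5%), beside 13.3% of all genes.

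Interferon-stimulated genes mostly had lower values with MDM4 in replicates 1 and 2. Of the 44 genes 40 were tested, and 39 had a lower mean with MDM4, beside 52.8% of all genes. The median log2 difference was -0.85, beside -0.01 over all genes. *IFIT5* was the exception. Over all 6 libraries none was called on FPKM, with or without a block on the replicate number, or with voom without the block. Voom on recovered reads with the block called 13 lower, beside 0.186% of all genes. In the FPKM fit without a block 27 had an unadjusted p below 0.05, beside 1.72% of all genes. By replicate number the median was -1.30, -1.34 and 0.01, and the number of genes lower was 40, 40 and 18. With replicates 1 and 2 alone 32 of the 40 were called lower (limma, adjusted p below 0.05), beside 0.512% of all genes, and for 18 the difference between replicate 3 and the others passed the test, beside 0.194% of all genes, with 1 library per group behind that term. Not every gene followed: *STAT2*, a transcription factor of the interferon response, was at 8.85, 7.97 and 12.8 FPKM in the controls and at 7.33, 7.50 and 12.8 FPKM with MDM4, and was highest in replicate 3 of both groups. It was named after its values were seen. *LGALS3BP*, the most abundant gene of the list by its mean over the 6 libraries, was at 186, 167 and 139 FPKM in the controls and at 119, 130 and 134 FPKM with MDM4. *ISG15*, the most abundant in the controls, was at 232, 240 and 92.7 FPKM in the controls and at 89.8, 95.7 and 86.1 FPKM with MDM4. The summed level of the list was 1206, 1227 and 572 FPKM in the controls and 457, 475 and 550 FPKM with MDM4.

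*BIRC3* is itself an NF-κB target, and 15 other targets were all tested. All 15 had a lower mean with MDM4, beside 52.8% of all genes. Their median was -0.27 over all libraries and -0.44, -0.28 and -0.00 by replicate number, and 15, 14 and 9 were lower in replicates 1, 2 and 3. Over all 6 libraries none was called on FPKM, with or without the block, or with voom without it. Voom on recovered reads with the block called 1 of them lower, beside 0.186% of all genes. With replicates 1 and 2 alone 5 were called lower, beside 0.512% of all genes, namely the chemokine genes *CXCL1*, *CXCL2*, *CXCL8* and *CCL20* together with *TNFAIP2*. *CXCL2*, with the lowest difference of the list, was at 11.1, 10.7 and 10.4 FPKM in the controls and at 5.31, 5.45 and 9.27 FPKM with MDM4. Its groups did not overlap, and MDM4 replicate 3 was the one close to the other group. *ICAM1*, the most abundant gene of the list, had a log2 difference of -0.19. In *BIRC3* it was control replicate 3 that was low, as in *CXCL8*, whose control values were 19.5, 21.2 and 10.5 FPKM.

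In the tumour necrosis factor receptor complex, where BIRC2 and BIRC3 act, 0 of 20 genes were called in either fit. The median log2 difference was -0.07, and 15 of 20 had a lower mean with MDM4, beside 52.8% of all genes. *TRAF1*, an adaptor found in complexes with TRAF2 and both ligases, was at 2.11, 1.90 and 1.91 FPKM in the controls and at 1.20, 1.19 and 1.73 FPKM with MDM4. Its groups did not overlap, with a log2 difference of -0.51 ± 0.20 and an unadjusted p of 0.0377 (limma, adjusted p = 0.9999). *TRADD*, the adaptor bound by the receptor itself, had a log2 difference of -0.33 ± 0.13 (unadjusted p = 0.0408) with much the same difference in each pair, at -0.38, -0.27 and -0.34. *TNFRSF1B*, the most abundant gene of this list, had a difference of -0.24 ± 0.14. With the libraries blocked by number, the unadjusted p was 0.000915 for *TRADD* (limma, adjusted p = 0.219) and 0.00232 for *TNFRSF1B* (adjusted p = 0.249). In that fit 12.6% of all genes had an unadjusted p below 0.05. *TRAF2*, the adaptor that recruits both ligases, was also lower in all MDM4 libraries than in any control (-0.21 ± 0.10), beside 3.76% of all genes, and *IKBKG* (NEMO), the regulatory subunit of the IκB kinase, was higher in all of them (0.19 ± 0.11), beside 3.1%. Neither was called, and both were named after their values were seen. *TRAF1* and *TNFAIP3* were in both this list and that of NF-κB targets.

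The caspases and the apoptosome, on which IAPs act, showed 0 of 9 genes called and a median log2 difference of -0.04. *APAF1*, the scaffold of the apoptosome, was at 3.98, 4.35 and 6.36 FPKM in the controls and at 5.01, 5.07 and 8.23 FPKM with MDM4, and was higher with MDM4 in each pair. Its difference was 0.30 ± 0.25 without a block (limma, unadjusted p = 0.261) and 0.30 ± 0.09 with the libraries blocked by number (unadjusted p = 0.00648, adjusted p = 0.294), and it was not called in either fit. *CASP8*, the initiator caspase of death receptors, had a difference of -0.16 ± 0.10, and *CYCS* (cytochrome c), the most abundant gene of the list, of -0.04 ± 0.08. Of the 5 other IAP antagonists and mitochondrial factors, 0 were called and the median was -0.09. *SEPT4*, whose product ARTS is an XIAP antagonist, was at 9.26, 8.56 and 12.3 FPKM in the controls and at 7.61, 6.91 and 12.4 FPKM with MDM4. *PARL*, a protease that processes DIABLO in mitochondria, was the most abundant of the 5, and its groups did not overlap although its difference was only -0.07 ± 0.06. The remaining BIR genes were scarcely expressed, with *NAIP* at 0.0905 to 0.249 FPKM and *BIRC8* listed at 0 in every library.

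No partner of *BIRC5* was called either. In the chromosomal passenger complex 0 of 3 genes were called, with differences of -0.16 ± 0.08 for *AURKB*, the kinase of the complex, 0.02 ± 0.08 for *INCENP* and -0.01 ± 0.17 for *CDCA8*. Of 17 G2/M genes 0 were called and the median was -0.02. *UBE2C*, the most abundant of these, was at 294, 283 and 209 FPKM in the controls and at 263, 275 and 205 FPKM with MDM4, so that it was lowest in the third replicate of each group, as *BIRC5* was. *CENPE*, a motor protein of the kinetochore, had the largest difference of the list, 0.20 ± 0.16.

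**Figure D4:**
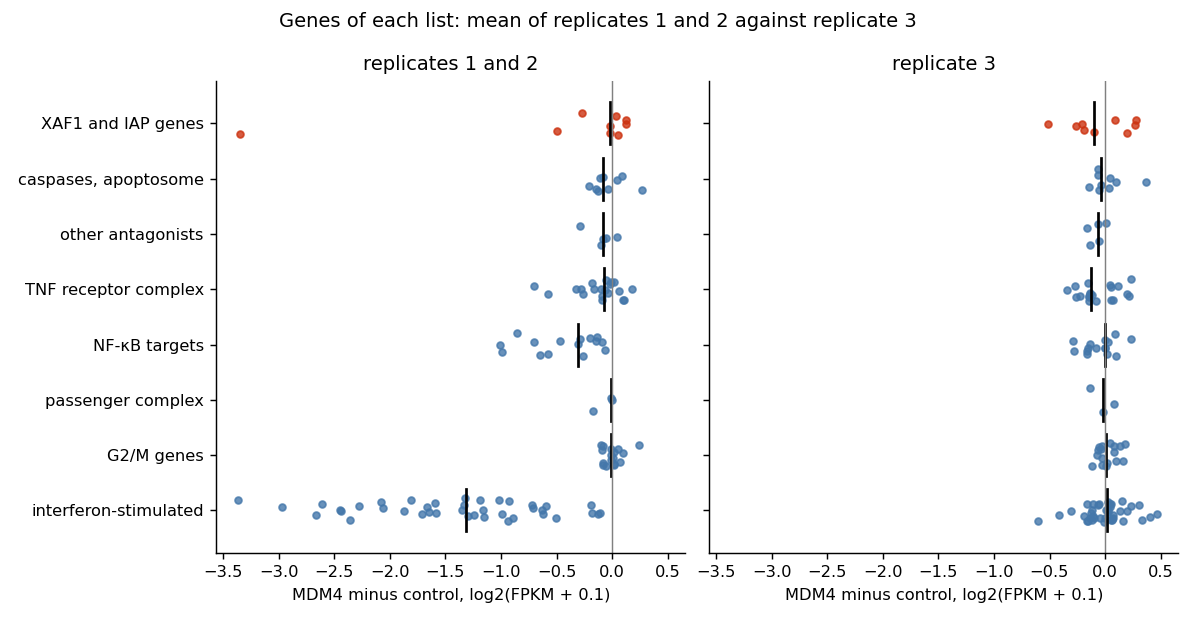
Difference between MDM4 and control on the log2(FPKM + 0.1) scale (horizontal axes) for each tested gene of the members and of 7 gene lists, as the mean of replicates 1 and 2 (left) and for replicate 3 (right), with a black line at the median of each list. The interferon-stimulated genes, with medians of -1.30 and -1.34 in replicates 1 and 2, and *XAF1* lie far to the left in the first panel, and the medians of all lists lie near 0 in the second.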

How the data were processed

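RNA of 6 SW480 libraries was enriched for mRNA with oligo(dT) beads and sequenced by the authors, who deposited 1 table of FPKM values per gene and library. The aligner, the genome build, the annotation and the strand setting are not given in the sources used here. Columns were matched to groups through the replicate number in the label and the letters G (control) and M (MDM4). FPKM are not counts, so log2(FPKM + 0.1) was tested with limma 3.58.1 in R 4.3.3 (eBayes with trend), without a block, in the 12884 genes that averaged 0.5 FPKM or more over the 6 libraries. P-values were adjusted by Benjamini-Hochberg over all of these genes, and a gene was called at an adjusted p below 0.05. No test was run over the members or a list alone.

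FPKM values of a gene step by what 1 read is worth, which gave whole reads for all 16537 genes above 0 in 2 or more libraries within 0.02 reads. The recovered reads served for counting intervals and for an alternative with voom. No count test was used for the main results. The read recovery and the limma step were tested on simulated data.

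The members and gene lists were chosen with earlier results of these data known, as was the separate look at replicate 3. Most genes were named by a rule: the 9 members, *MDM4* and the 10 genes nearest to *XAF1*. The rule also took from each list the genes with the largest differences and the most abundant one. Some genes were named outside the rule, and of these *STAT2*, *TRAF2* and *IKBKG* were named after their values were seen. Cell type markers were fixed as lists, and those at or near 0 were named in addition to the rule. Older symbols were matched through RefSeq names, which placed all listed genes in the table.

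The pairing of replicate numbers was checked on deviations from the group means: same-numbered libraries correlated at 0.458, 0.451 and 0.783. The correlation between number 1 of one group and number 2 of the other was as high (0.439 and 0.462). The check therefore set replicate 3 apart but could not tell whether numbers 1 and 2 pair the libraries. That pairing was assumed for the block and for the differences by replicate number. Nothing in the labels says what a number stands for. Motifs were searched on both strands with python 3.11.15.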

Additional observations from a re-analysis of the deposited data

How the results depend on the processing

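The log2 difference of *XAF1* stayed negative under all 17 alternatives that could be computed, from -3.59 to -0.87, the latter with a pseudocount of 1. It passed the threshold with replicates 1 and 2 alone (-3.35) and with voom on the recovered reads with the replicate block (-3.59). Leaving out 1 library at a time gave -3.17 to -2.00, and it passed the threshold only without control replicate 3 (-3.17). The number of members called was 0 in the analysis as reported and 1 in these same alternatives, and leaving out 1 library at a time gave 0 to 1. The number of genes called in the whole table was 0 as reported, 2 with the replicate block, 69 with replicates 1 and 2 alone and 29 with voom and the replicate block. Leaving out 1 library at a time it was 0 to 21, with 21 without control replicate 3 and 1 without MDM4 replicate 3.

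No other member was called under any alternative. Small differences changed sign for *BIRC3* without control replicate 2 (range on leaving out 1 library -0.34 to 0.14), for *BIRC5* without MDM4 replicate 3 (-0.10 to 0.019), for *DIABLO* with replicates 1 and 2 alone (0.034) and without control replicate 3 (-0.14 to 0.043), and for *HTRA2* without control replicate 3 (-0.18 to 0.022). The cause was not tested. In the lists, calls arose with replicates 1 and 2 alone, with voom and the replicate block and without control replicate 3. In that order 32, 13 and 14 of 40 tested interferon-stimulated genes and 5, 1 and 1 of 15 NF-κB targets were called, all lower with MDM4. Of all genes 0.512%, 0.186% and 0.147% were called lower in these fits. A filter at a mean of 1 FPKM dropped *XAF1* and *BIRC7*. *XAF1* had 4 to 16 reads in the MDM4 libraries, so fold changes within single pairs are imprecise.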
